A study of Mus musculus with 2 samples.

Results

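The 28 genes described here make cholesterol and fatty acids or control their synthesis, and they were taken as a named list out of the 33696 genes counted in each library. They fall into a sterol branch of 16 genes (Hmgcs1, Mvk, Pmvk, Mvd, Idi1, Fdps, Fdft1, Sqle, Lss, Cyp51, Msmo1, Nsdhl, Hsd17b7, Ebp, Sc5d and Dhcr7), a fatty acid branch of 9 genes (Acly, Acaca, Fasn, Scd1, Scd2, Elovl5, Elovl6, Fads1 and Fads2) and 3 regulators (Srebf1, Srebf2 and Insig1). All 28 were found in both libraries. The series holds 2 single-cell libraries of solid tumours from the ID8 mouse model of ovarian cancer, a syngeneic model in which a line from mouse ovarian surface epithelium grows in the peritoneal cavity. One library came from chemoresistant tumours, labelled as treated with cisplatin, and the other from primary tumours, labelled as treatment naïve. Cells of several tumours were pooled before loading, and the sources used here give no number, age or sex of animals. Each group is therefore 1 library, no difference between groups has a replicate check, and no p-value is given. Every interval below is a 95% interval that covers counting error only, not the difference between animals or between runs.

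Cholesterol synthesis starts from acetyl-CoA, runs through mevalonate and the isoprenoids to squalene, and closes squalene into the sterol rings that a series of enzymes then trims to cholesterol. Fatty acid synthesis draws on the same acetyl-CoA, which is built into palmitate and then elongated and desaturated. The membrane-bound transcription factors encoded by Srebf2 and Srebf1 drive the sterol and the fatty acid genes, and the Insig1 protein holds their precursors in the endoplasmic reticulum when sterols are plentiful.

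The chemoresistant library held 16390 barcodes and 158118781 UMIs (unique molecular identifiers, each 1 counted RNA molecule), and the primary library 14390 barcodes and 141334623 UMIs. After filtering, 14908 chemoresistant barcodes with a median of 4634.5 UMIs and 12824 primary barcodes with a median of 5744 UMIs were kept. A barcode was placed in a class by the number of that class's marker genes it held, and 16.7% of chemoresistant and 17.3% of primary barcodes stayed unassigned. The libraries shared 44 of the kept barcode sequences, of which 1 lay among tumour cells. The tumour class held 2796 chemoresistant cells with a median of 22438 UMIs and 534 primary cells with a median of 36520.5 UMIs. Its cells carried a median of 8 of 16 tumour epithelial and 4 of 8 mesothelial markers in both libraries, and neither list had a marker at 0. Epithelial and mesothelial identity were thus not parted, and 16.7% of chemoresistant and 32.6% of primary tumour cells sat at the limit of the rule. Markers of other cells were present in the class at different levels, with the 12 fibroblast markers summing to 610 CPM (counts per 1000000 UMIs of the class) in chemoresistant and 1254 CPM in primary tumour cells. The 10 neutrophil markers summed to 139 CPM in chemoresistant and 506 CPM in primary cells, and the 8 enterocyte markers to 5.48 CPM in chemoresistant, with 1 marker at 0, and 58.2 CPM in primary cells. The 5 erythroid genes went the other way, at 668 CPM in chemoresistant and 51.9 CPM in primary tumour cells. The part of fibroblast, neutrophil and erythroid RNA in the results was not tested. Cells with a UMI of Mki67, Top2a or Cdk1, called cycling here, made up 24.7% of chemoresistant and 38.2% of primary tumour cells. A deeper cell more easily holds such a UMI, and primary tumour cells were deeper. The part of depth in these shares was not tested.

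Chemoresistant tumour cells had less RNA of 5 members and more of 1 than primary tumour cells, counting a gene where its level differed by at least 1.5-fold and averaged at least 10 CPM over both libraries. The 5 lower members were Fdps, Cyp51 and Msmo1 of the sterol branch and Fasn and Elovl5 of the fatty acid branch, and Scd1 was the higher one. Of the 28 members, 20 passed the level filter. Among all 8857 genes past that filter, 13.1% were lower and 4.73% higher by this rule, and the median log2 ratio of chemoresistant over primary was -0.15, so that most genes lay slightly below 0. The sterol branch had a median log2 ratio of -0.27 over the 9 of its 16 members that passed, and the fatty acid branch -0.24 over all 9. The medians of the branches differed by -0.03, sterol minus fatty acid.

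**Figure D1:**
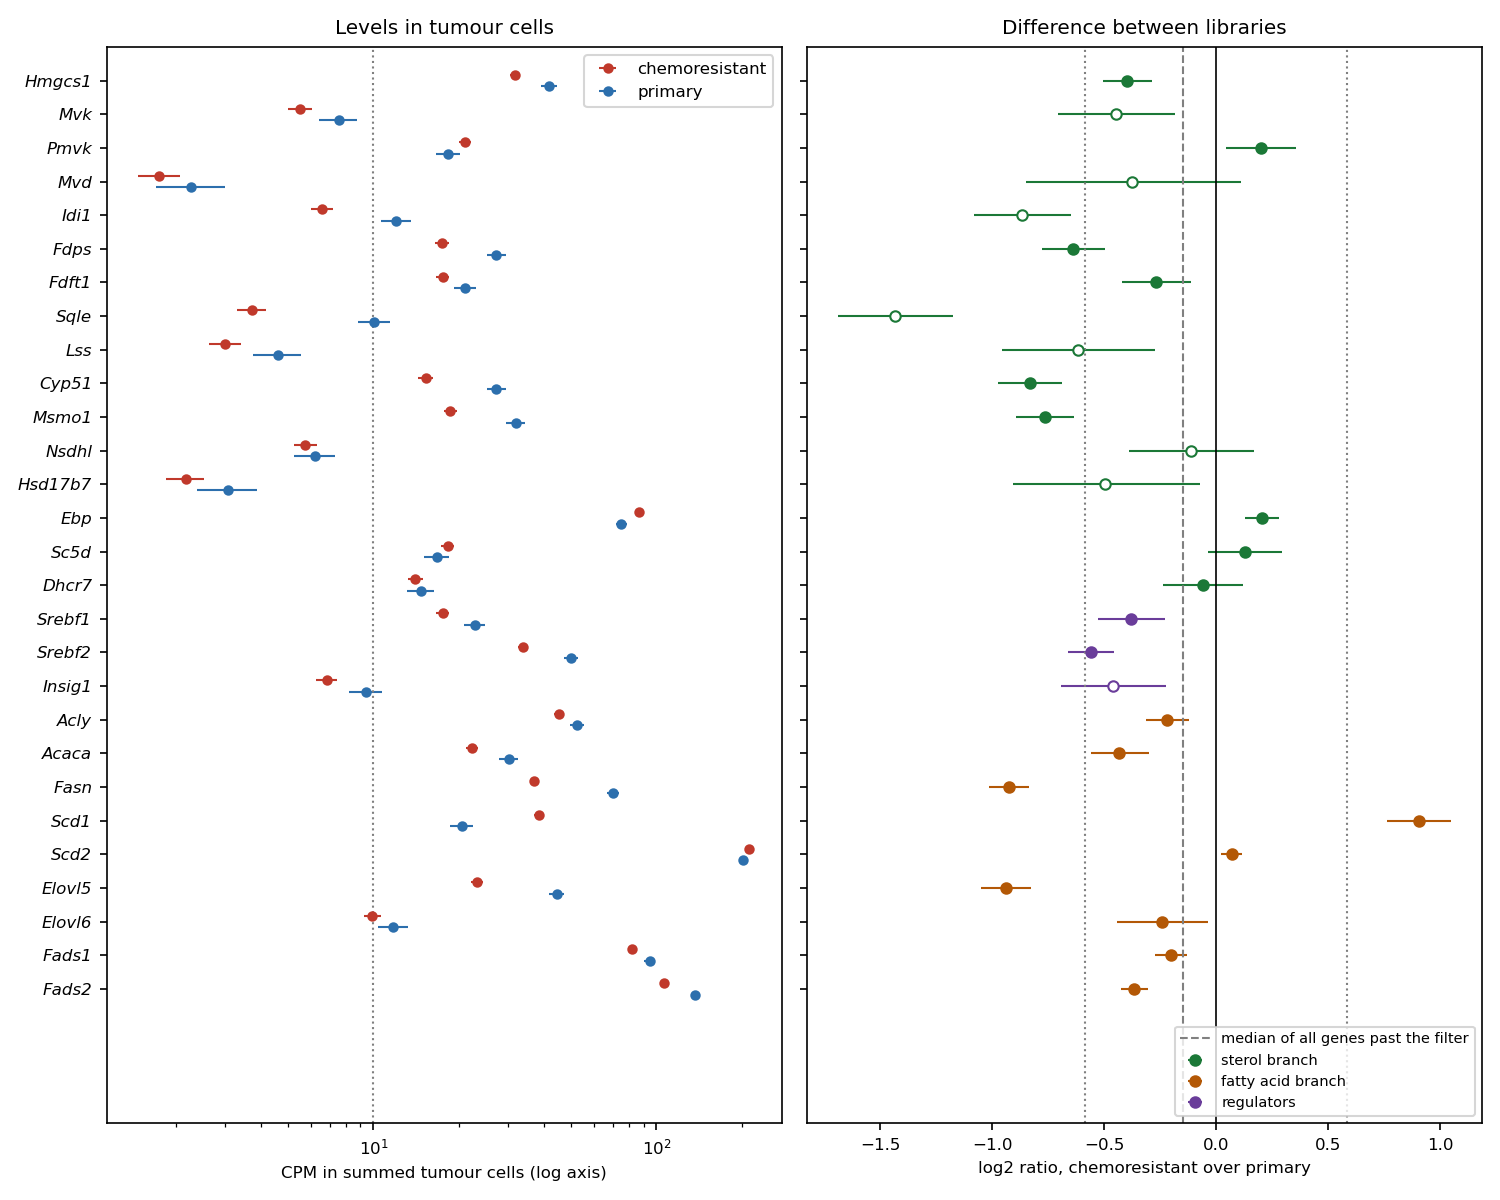
Left, level of each of the 28 genes in tumour cells of the chemoresistant (red) and primary (blue) library, in CPM on a log axis, with exact Poisson 95% intervals; the dotted line marks 10 CPM. Right, log2 ratio of chemoresistant over primary with its 95% counting interval, with open points for genes under the filter, a dashed line at the median of all genes (-0.15) and dotted lines at 1.5-fold; Fasn and Elovl5 lie farthest below among the genes past the filter, and Scd1 farthest above.

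The early steps of the sterol branch lead to the isoprenoid farnesyl diphosphate. Hmgcs1, which makes HMG-CoA, stood at 31.7 CPM in chemoresistant and 41.8 CPM in primary tumour cells, a log2 ratio of -0.40 (-0.51 to -0.29) that did not reach 1.5-fold. Fdps, the farnesyl diphosphate synthase, stood at 17.5 CPM in chemoresistant and 27.2 CPM in primary cells and was 1.56-fold lower, with a log2 ratio of -0.64 (-0.78 to -0.50). It kept 1.5-fold under 9 of 17 other processing choices, and with cells thinned to 10000 UMIs its log2 ratio was -0.23. Pmvk, which phosphorylates phosphomevalonate, went the other way, at 21.1 CPM in chemoresistant and 18.3 CPM in primary cells. The other early enzymes lay under the filter. Mvk, the mevalonate kinase, stood at 5.52 CPM in chemoresistant and 7.53 CPM in primary cells. Mvd, the mevalonate diphosphate decarboxylase, stood at 1.75 CPM in chemoresistant and 2.28 CPM in primary cells, and its intervals, unlike those of Mvk, overlapped. Idi1, the isopentenyl diphosphate isomerase, stood at 6.60 CPM in chemoresistant and 12.04 CPM in primary cells, the widest ratio of the 3.

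The middle steps make squalene and close it into lanosterol. Fdft1, the squalene synthase, stood at 17.6 CPM in chemoresistant and 21.1 CPM in primary tumour cells, a log2 ratio of -0.27 (-0.42 to -0.11). Sqle, the squalene epoxidase and a rate-limiting enzyme of the pathway, stood at 3.73 CPM in chemoresistant and 10.1 CPM in primary cells, resting on 285 chemoresistant and 230 primary UMIs. Its log2 ratio of -1.43 (-1.69 to -1.18) was the lowest of the 28, but its mean level was under the filter, so that it does not enter the counts. With every barcode that held a UMI of an intestinal marker left out, which left 106 primary cells, the ratio of Sqle was -0.10. Lss, the lanosterol synthase, stood at 2.99 CPM in chemoresistant and 4.60 CPM in primary cells and was under the filter as well.

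The late steps turn lanosterol into cholesterol. Cyp51, the lanosterol demethylase, stood at 15.3 CPM in chemoresistant and 27.2 CPM in primary tumour cells and was 1.78-fold lower, with a log2 ratio of -0.83 (-0.97 to -0.69). Msmo1, the methylsterol monooxygenase that acts after it, stood at 18.7 CPM in chemoresistant and 31.8 CPM in primary cells and was 1.70-fold lower, at -0.76 (-0.89 to -0.63). Both enzymes were thus lower side by side, while no later enzyme past the filter reached 1.5-fold. Ebp, a sterol isomerase, stood at 86.7 CPM in chemoresistant and 75.2 CPM in primary cells, Sc5d, a sterol desaturase, at 18.3 CPM in chemoresistant and 16.8 CPM in primary cells, and Dhcr7, the last reductase of one route to cholesterol, at 14.1 CPM in chemoresistant and 14.7 CPM in primary cells. Of these, Ebp had the widest ratio, at 1.15-fold. Nsdhl and Hsd17b7, which remove a methyl carbon and reduce the ketone it leaves, lay under the filter at 5.75 and 2.17 CPM in chemoresistant cells, against 6.22 and 3.07 CPM in primary cells.

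Over all 16 sterol genes, filter or not, 13 had a log2 ratio below 0, and the median of the 16 was -0.42. Among all genes past the filter, 65.6% were below 0 in tumour cells. The summed sterol branch stood at 269 CPM (266 to 273) in chemoresistant and 320 CPM (313 to 327) in primary tumour cells, a log2 ratio of -0.25 (-0.29 to -0.21). Hmgcs1, Fdps, Cyp51 and Msmo1 had the widest gaps in CPM on the lower side, and Ebp the widest on the higher side.

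The promoters of Cyp51, Msmo1, Fasn and Elovl5, the lower members with an entry in the table, are printed with that of Hmgcs1, the only member promoter that held the letters TCACNCCAC, a form of the sterol response element. Sequences are from RefSeq, build GRCm38.p6, and run over the 250 bases before the start that the promoter table uses, 5′ to 3′ on the gene's strand. For Fasn that start lies inside the gene as annotated, which reaches to base 120825166, while the other 4 windows end where the gene begins. Capitals mark CCAAT, the box bound by NF-Y, and TCACNNCAC, a looser form of the sterol response element, each searched on both strands, so that ATTGG is CCAAT on the other strand. A CCAAT and the TCACNNCAC of Msmo1 share letters, as do a pair of CCAAT on opposite strands in Fasn, and each TCACNCCAC is also a TCACNNCAC. The regions are chr13:119690101-119690350, plus strand for Hmgcs1, chr5:4104698-4104947, minus strand for Cyp51, chr8:64733579-64733828, minus strand for Msmo1, chr11:120824548-120824797, minus strand for Fasn and chr9:77917115-77917364, plus strand for Elovl5.
Hmgcs1: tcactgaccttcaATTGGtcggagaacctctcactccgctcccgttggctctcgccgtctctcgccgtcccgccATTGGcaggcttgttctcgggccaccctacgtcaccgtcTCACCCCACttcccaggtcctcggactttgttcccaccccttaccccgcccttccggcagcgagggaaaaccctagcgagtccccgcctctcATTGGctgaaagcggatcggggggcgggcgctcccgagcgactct
Cyp51: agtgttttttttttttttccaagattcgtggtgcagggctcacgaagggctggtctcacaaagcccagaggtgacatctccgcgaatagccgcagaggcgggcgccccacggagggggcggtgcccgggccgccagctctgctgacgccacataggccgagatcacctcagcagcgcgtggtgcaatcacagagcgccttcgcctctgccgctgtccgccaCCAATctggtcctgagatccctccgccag
Msmo1: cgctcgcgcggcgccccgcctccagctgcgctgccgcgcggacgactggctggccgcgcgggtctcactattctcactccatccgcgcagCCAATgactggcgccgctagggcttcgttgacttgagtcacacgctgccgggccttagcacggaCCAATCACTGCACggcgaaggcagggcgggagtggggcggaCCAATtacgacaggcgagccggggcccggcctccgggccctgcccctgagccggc
Fasn: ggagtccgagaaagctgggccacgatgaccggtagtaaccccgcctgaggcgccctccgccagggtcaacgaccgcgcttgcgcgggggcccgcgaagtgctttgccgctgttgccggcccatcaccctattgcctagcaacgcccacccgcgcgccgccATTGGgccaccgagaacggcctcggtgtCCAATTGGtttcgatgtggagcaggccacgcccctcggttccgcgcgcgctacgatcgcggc
Elovl5: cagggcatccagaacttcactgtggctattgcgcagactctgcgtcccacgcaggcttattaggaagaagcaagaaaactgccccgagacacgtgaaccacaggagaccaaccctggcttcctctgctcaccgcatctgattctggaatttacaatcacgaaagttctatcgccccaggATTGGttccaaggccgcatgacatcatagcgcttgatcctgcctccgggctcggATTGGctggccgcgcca
Of the 28 genes, 22 had a promoter entry, with 27 entries in all because some genes have several starts. CCAAT was found for 13 of the 13 sterol genes with an entry, for 2 of 6 fatty acid genes (Fasn and Elovl5) and for all 3 regulators. By entry, 13 of 16 sterol entries held it (81.3%) and 2 of 6 fatty acid entries (33.3%), against 33.8% of all 32851 promoter entries. TCACNNCAC was found for 4 sterol genes (Hmgcs1, Msmo1, Hsd17b7 and Dhcr7) each in 1 entry, and for no fatty acid gene or regulator, against 3.11% of all entries, and TCACNCCAC for Hmgcs1 alone, against 1.05%. GGGCGG, the box bound by Sp1, was found for 12 sterol genes, 2 fatty acid genes and 3 regulators, in 19 of the 27 entries (70.4%), against 32.7% of all entries. CACGTG, an E-box, was found for 5 of the 22 genes, in 5 of the 27 entries, against 6.02% of all entries. These matches describe the letters in each window, and sterol genes that differed between the libraries and sterol genes that did not both held CCAAT.

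Ratios in the fatty acid branch ran between -0.94 and 0.91 on the log2 scale, against -0.83 and 0.21 for the sterol genes past the filter. Acly, which makes cytosolic acetyl-CoA from citrate, stood at 45.1 CPM in chemoresistant and 52.5 CPM in primary tumour cells, a log2 ratio of -0.22 (-0.31 to -0.12). Acaca, the acetyl-CoA carboxylase, stood at 22.3 CPM in chemoresistant and 30.0 CPM in primary cells, at -0.43 (-0.56 to -0.30). Fasn, the fatty acid synthase, stood at 37.0 CPM in chemoresistant and 70.3 CPM in primary cells and was 1.90-fold lower, at -0.93 (-1.01 to -0.84). Of these 3 enzymes of palmitate synthesis, all were below 0, beside 65.6% of all genes, and Fasn alone passed 1.5-fold.

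The elongases and desaturases did not go one way. Elovl5, an elongase of polyunsaturated fatty acids, stood at 23.2 CPM in chemoresistant and 44.4 CPM in primary cells and was 1.92-fold lower, at -0.94 (-1.05 to -0.83), while Elovl6, which elongates palmitate, stood at 9.92 CPM in chemoresistant and 11.7 CPM in primary cells, at -0.24 (-0.44 to -0.04). Fads1 and Fads2, the desaturases of polyunsaturated fatty acids, stood at 82.1 and 106 CPM in chemoresistant cells, against 94.5 and 137 CPM in primary cells, both within 1.5-fold. Scd1, a stearoyl-CoA desaturase that makes oleate, stood at 38.4 CPM in chemoresistant and 20.5 CPM in primary cells and was 1.87-fold higher, at 0.91 (0.77 to 1.05). Its paralogue Scd2 stood at 213 CPM in chemoresistant and 203 CPM in primary cells, at 0.07 (0.02 to 0.12). Both genes lie on chromosome 19, Scd1 at chr19:44394450-44407709 and Scd2 at chr19:44293676-44306864 (GRCm38.p6). The sources used here do not say how reads shared by paralogues or pseudogenes were counted, so that values of these 2 genes carry that doubt. With cycling cells left out, Scd1 had a log2 ratio of 0.55, and among barcodes with 5 or more mesothelial markers 0.56, both short of 1.5-fold.

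Of the regulators, Srebf2 stood at 33.8 CPM in chemoresistant and 49.8 CPM in primary tumour cells, a log2 ratio of -0.56 (-0.66 to -0.46), just inside 1.5-fold. Srebf1 stood at 17.5 CPM in chemoresistant and 22.8 CPM in primary cells, at -0.38 (-0.53 to -0.23). Insig1, itself a known target of the sterol response, stood at 6.84 CPM in chemoresistant and 9.41 CPM in primary cells, under the filter. All 3 were below 0, beside 65.6% of all genes, and none passed 1.5-fold.

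On chromosome 8, which carries Mvd and Msmo1, the median log2 ratio of all tested genes was -0.41, and on chromosome 10, which carries Lss, -0.38, both below the median of -0.15 over all chromosomes. Measured from its chromosome's median, Msmo1 stood at -0.36 and Mvd at 0.03. Fasn, Elovl5 and Cyp51 stood at -0.73, -0.89 and -0.66 from theirs, and Scd1 at 0.94.

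The size of the sterol difference moved with the limits on intestinal and coelomic markers in the tumour class. With the intestinal limit alone lifted, the class took in 2803 chemoresistant and 599 primary barcodes, and the median log2 ratio was -0.70 for the sterol branch and -0.31 for the fatty acid branch. Then 10 members were lower by at least 1.5-fold, beside 13.9% of all genes. With the limit on coelomic markers alone lifted, the sterol median was -0.27 and the fatty acid median -0.26. With both limits lifted, which took in 2985 chemoresistant and 704 primary barcodes, the sterol median was -1.17 and the fatty acid median -0.25, and 12 members were lower, beside 15.2% of all genes. Fdps stood at -1.17 with the intestinal limit alone lifted, at -0.62 with the coelomic limit alone lifted and at -1.46 with both lifted. Barcodes with at least 5 of 8 enterocyte markers, called intestinal-like here, numbered 3 in the chemoresistant and 128 in the primary library. In the primary ones the summed sterol branch stood at 893 CPM (860 to 927), against 320 CPM in primary tumour cells, with Hmgcs1 at 160 CPM, Fdps at 113 CPM, Ebp at 97.7 CPM and Msmo1 at 96.1 CPM. The fatty acid branch stood at 322 CPM in the same barcodes, against 663 CPM in primary tumour cells. Elovl6 stood at 101 CPM there, against 11.7 CPM in primary tumour cells, and Acaca at 41.5 CPM, against 30.0 CPM, while the other 7 fatty acid genes were below their primary tumour level. In the tumour class as used here, Fabp2, the intestinal fatty acid binding protein, stood at 0.196 CPM in chemoresistant and 29.2 CPM in primary cells. The primary value is 0.176% of its level in the primary intestinal-like barcodes. At that share intestinal RNA would carry 1.57 CPM of the 320 CPM of sterol branch RNA in primary tumour cells. Fabp2 is among the intestinal markers that the tumour rule limits, so its low level here was set in part by that rule. The part of intestinal RNA in the sterol branch therefore cannot be read from this share and was not tested. With every barcode that held a UMI of an intestinal marker left out, 106 primary tumour cells stayed, and the sterol branch had a median of -0.34 and the fatty acid branch -0.30.

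**Figure D2:**
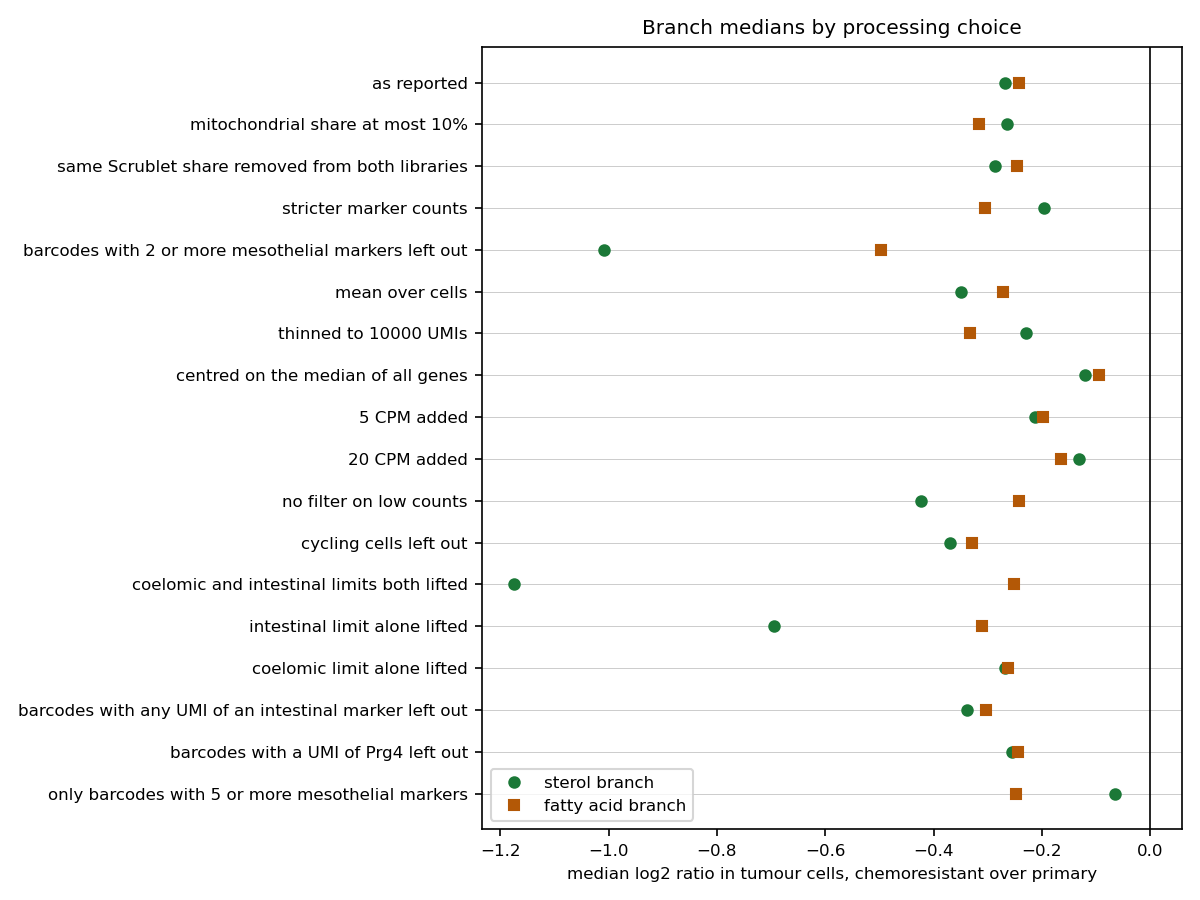
Median log2 ratio of chemoresistant over primary in tumour cells for the sterol branch (green circles) and the fatty acid branch (brown squares), as reported and under each of 17 other processing choices. The sterol median lies at -1.17 where the coelomic and intestinal limits are both lifted, at -0.70 where the intestinal limit alone is lifted and at -0.07 where only barcodes with 5 or more mesothelial markers are used; the fatty acid median lies between -0.50 and -0.10.

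Within the tumour class the branches also varied between cells. Cycling cells, which were deeper, with a median of 33240.5 UMIs in the chemoresistant and 50904.5 UMIs in the primary library, held more sterol branch RNA than the other tumour cells, at 294 CPM in cycling and 256 CPM in other cells of the chemoresistant library, and at 333 CPM in cycling and 306 CPM in other cells of the primary library. The fatty acid branch went the other way, at 542 CPM in cycling and 595 CPM in other chemoresistant cells, and at 605 CPM in cycling and 724 CPM in other primary cells. Fdps and Cyp51 were higher in cycling cells of both libraries. Fdps stood at 21.9 CPM in cycling and 15.1 CPM in other chemoresistant cells, and at 33.2 CPM in cycling and 21.0 CPM in other primary cells. Cyp51 stood at 19.2 CPM in cycling and 13.2 CPM in other chemoresistant cells, and at 32.3 CPM in cycling and 22.0 CPM in other primary cells. Scd2 was lower in cycling cells of both libraries, at 179 CPM in cycling and 231 CPM in other chemoresistant cells, and at 168 CPM in cycling and 238 CPM in other primary cells. Because the primary tumour class held a larger share of cycling cells, the libraries were also compared without them. Without cycling cells the sterol branch had a median log2 ratio of -0.37 and the fatty acid branch -0.33, with 4 members lower, beside 14.6% of all genes and an all-gene median of -0.16.

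Cells above the median of 8 hypoxia genes (Bnip3, Ndrg1, Ero1a, Vegfa, P4ha1, Slc2a1, Hilpda and Ankrd37, a list chosen after the data were seen) held more Scd2. In the chemoresistant library Scd2 stood at 280 CPM in hypoxia-high and 157 CPM in hypoxia-low tumour cells, and in the primary library at 235 CPM in hypoxia-high and 170 CPM in hypoxia-low cells. Srebf2 stood higher on the same side in both libraries, at 39.4 CPM in hypoxia-high and 29.2 CPM in hypoxia-low chemoresistant cells, and at 57.8 CPM in hypoxia-high and 41.8 CPM in hypoxia-low primary cells. Sqle differed more in one library than the other, at 6.12 CPM in hypoxia-high and 1.73 CPM in hypoxia-low chemoresistant cells, and at 11.3 CPM in hypoxia-high and 8.88 CPM in hypoxia-low primary cells. Sqle also stood low in cells with 5 or more mesothelial markers. It stood at 1.23 CPM there, on 48 UMIs, and 6.33 CPM in other chemoresistant cells, and at 6.82 CPM there and 15.7 CPM in other primary cells. The cells with 5 or more such markers were also deeper. Their median was 32254 UMIs, against 16970 in other cells, in the chemoresistant library, and 49110, against 24234, in the primary library. Cells of 1 library are not replicates, and these values carry no test of a difference between libraries.

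To see whether members varied together from cell to cell, tumour cells were thinned to 10000 UMIs each, which kept 2254 chemoresistant and 484 primary cells, and were split at the median summed count of a branch without the gene in question. In chemoresistant cells above the median sterol sum, sterol members past the filter had a median log2 ratio of 0.15 (7 of 9 above 0). All other genes had 0.01 there (4715 of 8687 above 0). In primary cells the sterol members had 0.43 (10 of 10 above 0), and all other genes 0.03 (4890 of 9098 above 0). Msmo1 stood at 26.1 CPM above and 17.8 CPM below the split in chemoresistant cells, and Cyp51 at 34.2 CPM above and 16.6 CPM below it in primary cells. Split by the fatty acid sum instead, the sterol members had a median of -0.01 in chemoresistant and 0.53 in primary cells, against 0.05 for all other genes in both libraries. Hmgcs1 in primary cells stood at 63.2 CPM above and 27.7 CPM below that split. The fatty acid members themselves had a median of 0.37 (8 of 8 above 0) in chemoresistant and 0.30 (7 of 9 above 0) in primary cells. Of all other genes, 5134 of 8688 were above 0 in chemoresistant and 5059 of 9100 in primary cells by that split. Insig1 in primary cells stood at 19.2 CPM above and 7.62 CPM below the split by the sterol sum, and at 16.4 CPM above and 7.20 CPM below that by the fatty acid sum. The sums were small, with a median of 2 UMIs of the sterol branch per chemoresistant and 3 per primary cell, so that these are descriptions of sparse counts. Some other marker lists moved with the splits in both libraries, and their part was not tested. In chemoresistant cells hypoxia genes stood at 695 CPM above and 1036 CPM below the split by the sterol sum. By the fatty acid sum they stood at 1102 CPM above and 669 CPM below. In primary cells split by the sterol sum, enterocyte markers stood at 62.8 CPM above and 61.0 CPM below, and mesothelial markers at 901 CPM above and 1200 CPM below. Tumour markers stood there at 3053 CPM above and 3610 CPM below, and hypoxia genes at 413 CPM above and 613 CPM below. In primary cells split by the fatty acid sum, enterocyte markers stood at 67.3 CPM above and 56.8 CPM below. Hypoxia genes stood there at 668 CPM above and 448 CPM below.

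Across the 7 classes with at least 50 cells in both libraries, the tumour class had the highest summed fatty acid branch, at 577 CPM in chemoresistant and 663 CPM in primary cells, and not the highest sterol branch. Dendritic cells held the most sterol branch RNA, at 457 CPM (417 to 499) in chemoresistant and 361 CPM (332 to 391) in primary cells. In the chemoresistant library T or NK cells followed at 313 CPM, tumour cells at 269 CPM and fibroblasts at 252 CPM, and phagocytes at 218 CPM, B-lineage cells at 207 CPM and neutrophils at 199 CPM came last, with neutrophil intervals that took in both others. In the primary library tumour cells followed at 320 CPM, then B-lineage cells at 299 CPM, fibroblasts at 292 CPM and T or NK cells at 289 CPM, whose intervals overlapped. Primary neutrophils stood at 189 CPM and phagocytes at 208 CPM, and the intervals of these 2 classes did not overlap. Single genes had their own order. Idi1 and Pmvk were highest in dendritic cells and Ebp in tumour cells in both libraries, while Elovl5 and Elovl6 were highest in T or NK cells. Acly was highest in phagocytes, at 145 CPM in chemoresistant and 129 CPM in primary cells, though the primary interval overlapped that of fibroblasts, at 118 CPM. Scd1 was highest in B-lineage cells, at 221 CPM in chemoresistant and 167 CPM in primary cells, against 38.4 CPM in chemoresistant and 20.5 CPM in primary tumour cells.

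**Figure D3:**
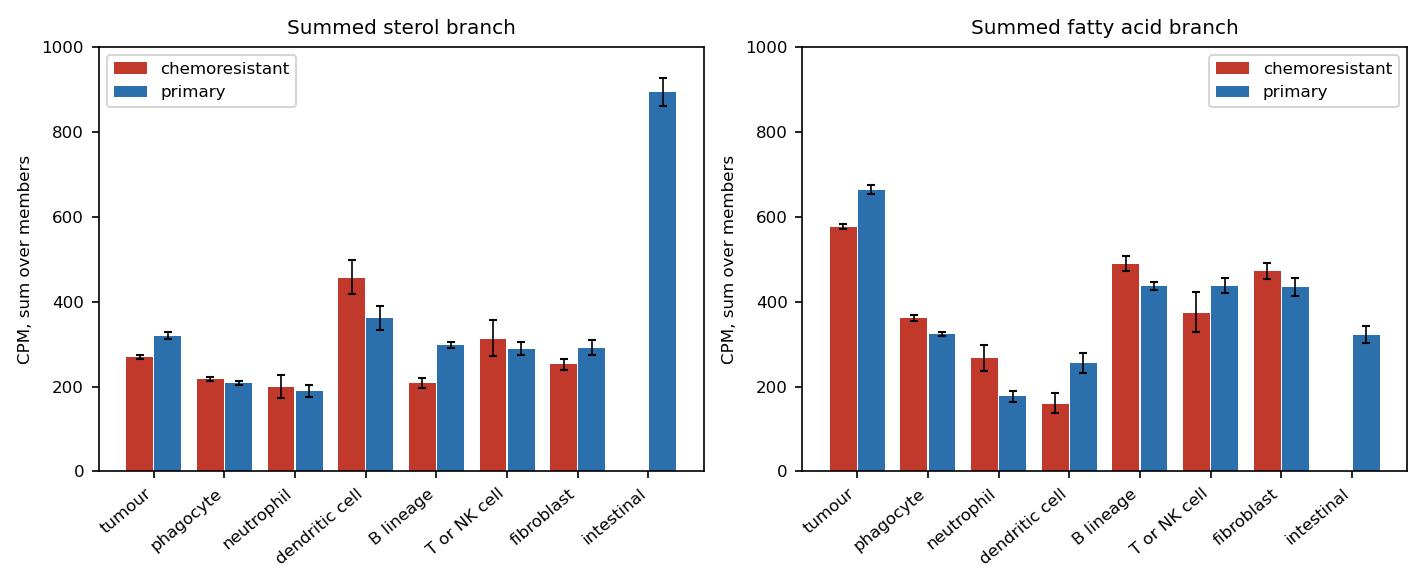
Summed level of the 16 sterol genes (left) and of the 9 fatty acid genes (right) by cell class in the chemoresistant (red) and primary (blue) library, in CPM, with exact Poisson 95% intervals; the chemoresistant library has no bar for the intestinal-like class, which held 3 barcodes there. The primary intestinal-like class stands highest for sterol genes, at 893 CPM, and tumour cells stand highest for fatty acid genes, at 577 CPM (chemoresistant) and 663 CPM (primary).

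B-lineage cells had a lower sterol branch in the chemoresistant library. The summed branch stood at 207 CPM (196 to 219) in chemoresistant and 299 CPM (291 to 306) in primary B-lineage cells, a log2 ratio of -0.53 (-0.62 to -0.44), and 4 of the 9 sterol genes past the filter were lower by at least 1.5-fold, beside 8.56% of all genes. They were Cyp51, at 16.2 CPM in chemoresistant and 38.8 CPM in primary cells, Fdps, at 14.0 CPM in chemoresistant and 31.7 CPM in primary cells, Idi1, at 11.4 CPM in chemoresistant and 24.1 CPM in primary cells, and Msmo1, at 15.7 CPM in chemoresistant and 27.1 CPM in primary cells. Srebf2 stood at 72.7 CPM in chemoresistant and 161 CPM in primary cells, 2.21-fold lower. The fatty acid branch stood at 489 CPM in chemoresistant and 437 CPM in primary cells, and 2 of its 8 genes past the filter were higher by at least 1.5-fold (Scd2 and Fads1), beside 6.37% of all genes. The make-up of the class differed as well. Mki67 stood at 26.9 CPM in chemoresistant and 124 CPM in primary B-lineage cells, and Jchain, a plasma cell gene, at 123 CPM in chemoresistant and 2172 CPM in primary cells, with a median of 1530 UMIs per chemoresistant and 4500 per primary cell. Among B-lineage cells without a cycling gene or a Jchain UMI, 2850 chemoresistant and 2401 primary, the sterol branch stood at 188 CPM in chemoresistant and 238 CPM in primary cells, a log2 ratio of -0.34 (-0.45 to -0.23), and Srebf2 at 69.9 CPM in chemoresistant and 181 CPM in primary cells, at -1.37 (-1.54 to -1.21). The sterol ratio was thus nearer 0 without these cells, and the Srebf2 ratio was not.

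Dendritic cells and T or NK cells had 4 higher members each. In dendritic cells 1 of the 18 past the filter was lower. In T or NK cells 9 of 23 were lower, beside 20% of all genes. The T or NK class held 259 chemoresistant and 960 primary cells, and some of its calls rested on few chemoresistant UMIs. Fdps, called lower, had 10 (log2 interval -1.69 to 0.33), and Mvk, called higher, had 13 (-0.06 to 1.83). Both intervals took in 0, while that of Pmvk (0.94 to 2.12) did not. In dendritic cells, 212 chemoresistant and 171 primary, the fatty acid branch stood at 160 CPM (137 to 185) in chemoresistant and 255 CPM (231 to 280) in primary cells, and Elovl5 at 45.2 CPM in chemoresistant and 110 CPM in primary cells, 2.43-fold lower, where 26.8% of all genes were lower. Pmvk stood at 151 CPM in chemoresistant and 65.8 CPM in primary dendritic cells, 2.30-fold higher, where 6.65% of all genes were higher, and at 51.4 CPM in chemoresistant and 17.6 CPM in primary T or NK cells, 2.92-fold higher, where 13.5% were. The difference of branch medians, sterol minus fatty acid, was 0.61 in dendritic cells, 0.54 in T or NK cells, -0.17 in phagocytes, -0.25 in fibroblasts, -0.64 in B-lineage cells and -0.95 in neutrophils. It had no common sign over the classes. In T or NK cells its sign depended on the filter. The medians past the filter were -0.07 (sterol) and -0.61 (fatty acid) there, and over all members -0.06 (sterol) and 0.27 (fatty acid).

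**Figure D4:**
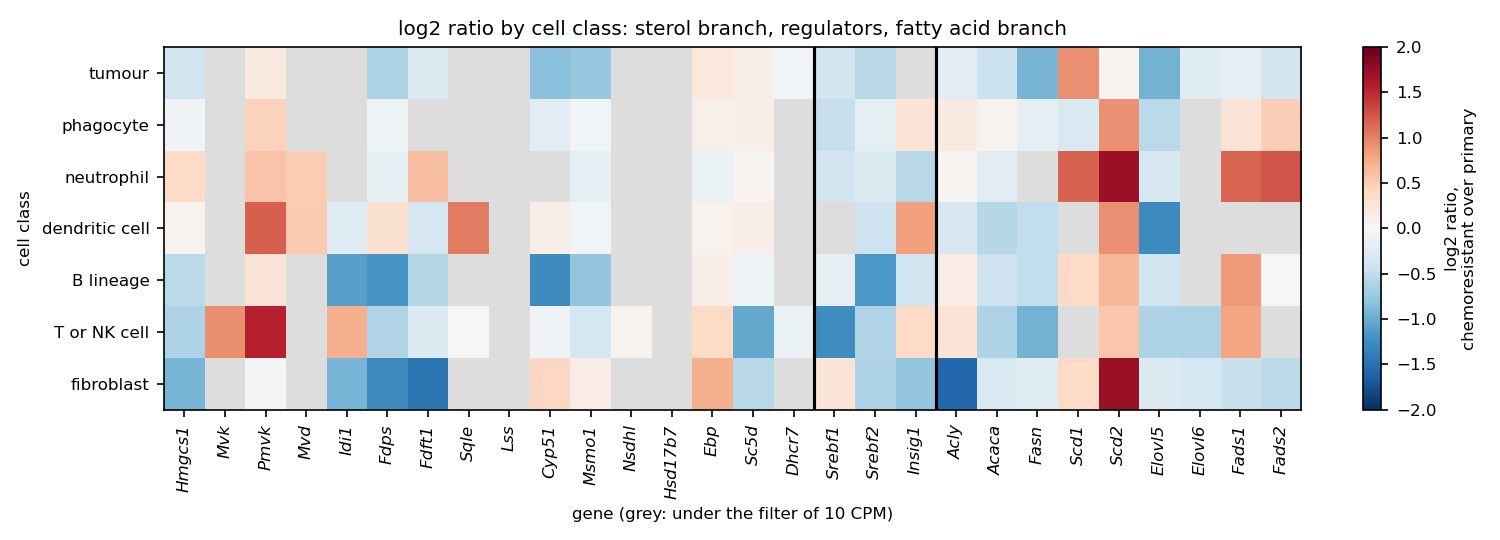
Log2 ratio of chemoresistant over primary for each gene (columns, in the order sterol branch, regulators, fatty acid branch) in each of 7 cell classes (rows); red is higher and blue lower in the chemoresistant library, and grey marks genes under 10 CPM on average. The Scd2 column is above 0 in all 7 classes and the Srebf2 and Elovl5 columns are below 0 in all 7.

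Scd2, Srebf2 and Elovl5 each had 1 sign in all 7 classes. Scd2 had a log2 ratio of 0.07 in tumour cells and between 0.55 and 1.73 in the other classes, and was higher by at least 1.5-fold in 5 classes. In neutrophils it stood at 85.0 CPM in chemoresistant and 25.6 CPM in primary cells, in phagocytes at 65.9 CPM in chemoresistant and 35.0 CPM in primary cells, and in fibroblasts at 226 CPM in chemoresistant and 68.7 CPM in primary cells. Of the phagocyte members, Scd2 alone was called, and 14.9% of all genes were lower in that class. Neutrophils had 5 higher and 0 lower members of 18 past the filter, where 19.5% of all genes were lower. By class, 18.3% of all genes were higher in neutrophils, 4.08% in phagocytes and 13.5% in fibroblasts. Tumour transcripts in these classes also differed between the libraries. The 5 tumour transcripts Wt1, Krt8, Krt18, Krt19 and Upk3b stood in neutrophils at 15.7% of their tumour level in the chemoresistant and 5.08% in the primary library, in phagocytes at 12.4% in the chemoresistant and 6.04% in the primary library, and in fibroblasts at 16.3% in the chemoresistant and 11.5% in the primary library. At those shares tumour RNA would carry 33.5 CPM of Scd2 in chemoresistant and 10.3 CPM in primary neutrophils, 26.4 CPM in chemoresistant and 12.2 CPM in primary phagocytes, and 34.7 CPM in chemoresistant and 23.2 CPM in primary fibroblasts. Each is under the level measured in that class, and the ratio between libraries is of a like size in neutrophils. In neutrophils Scd1, Fads1 and Fads2 stood at 18.6, 17.7 and 27.5 CPM in the chemoresistant library, against 8.18, 7.93 and 11.5 CPM in the primary library. There the same shares give 6.05, 12.9 and 16.7 CPM in the chemoresistant library, against 1.04, 4.80 and 6.95 CPM in the primary library. The part of tumour RNA in these differences was not tested.

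Srebf2 had log2 ratios between -1.15 and -0.18 in the 7 classes and was lower by at least 1.5-fold in 3 of them, and Elovl5 had ratios between -1.28 and -0.27, lower by that fold in tumour cells, dendritic cells and T or NK cells. Fasn was below 0 in the 6 classes where it passed the filter. These ratios share their libraries, so that 7 classes are not 7 independent comparisons. Among all genes past the filter the median was also below 0 in each of the 7 classes, between -0.28 and -0.05. Between 55.6% (neutrophils) and 71.4% (phagocytes) of those genes lay below 0. In phagocytes Srebf2, at -0.18, lay above that class's all-gene median of -0.26. Fibroblasts had 7 lower and 2 higher members of 21 past the filter, where 31.6% of all genes were lower. Xist, expressed by female cells, stood at 139 CPM in chemoresistant and 766 CPM in primary fibroblasts, against 118 CPM in chemoresistant and 215 CPM in primary tumour cells. Acly in fibroblasts stood at 39.6 CPM in chemoresistant and 118 CPM in primary cells. Fdft1 stood there at 6.54 CPM in chemoresistant and 17.9 CPM in primary cells. Scd2 stood there at 226 CPM in chemoresistant and 68.7 CPM in primary cells, against 213 CPM in chemoresistant tumour cells. These fibroblast values stand beside the Xist difference, whose part in them was not tested.

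Around the 28 genes, 51 others of sterol and fatty acid metabolism were looked at in tumour cells, of which 35 passed the filter, 8 were lower and 3 higher by at least 1.5-fold, beside 13.1% and 4.73% of all genes. Their median log2 ratio was 0.01, against -0.15 for all genes. Npc2 and Npc1, which carry cholesterol out of lysosomes, stood at 835 and 34.1 CPM in chemoresistant cells, against 406 and 22.0 CPM in primary cells, 2.06-fold and 1.55-fold higher. Mbtps1, the protease that first cuts the Srebf proteins, stood at 30.7 CPM in chemoresistant and 50.01 CPM in primary cells, 1.63-fold lower. Of the 17 other fatty acid synthesis and elongation genes 11 passed, and 4 were lower: Hacd2, a dehydratase of elongation, with a log2 ratio of -0.91, Me1, the NADPH-making malic enzyme, with -0.83, Acss2, which makes acetyl-CoA from acetate, with -0.76, and Mlxipl, a glucose-sensing transcription factor of lipid genes, with -0.61. Among 12 genes of fatty acid activation, esterification and uptake, Lpl, the lipoprotein lipase, stood at 266 CPM in chemoresistant and 524 CPM in primary cells and was lower, and Agpat2, an acyltransferase of glycerolipid synthesis, at 13.8 CPM in chemoresistant and 7.14 CPM in primary cells and was higher. Of the 6 genes of the LXR response and efflux, 3 passed the filter and none differed by 1.5-fold.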

How the data were processed

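Both deposited matrices are raw UMI counts, which the authors made with Cell Ranger 8.0.1 on build mm10, per the submitters' processing notes. No annotation version is given in the sources used. Tumours were digested with collagenase and loaded as pooled suspensions, per the labels' protocols. Filters asked for 500 UMIs, 250 genes and no more than 20% mitochondrial UMIs per barcode. A barcode took the class with the most markers, given at least 3 markers and a lead of 2 over the next of 11 lists. Tumour cells also needed at least 2 of 12 mesothelial or coelomic markers and at most 2 intestinal marker UMIs per 10000. The marker lists were set with the design, while the way they are counted, and these last limits above all, were set after the data were seen. Barcodes with no such lead stayed unassigned, and no doublet caller was used in the reported values. Scrublet's automatic threshold marked 0 chemoresistant barcodes, so the alternative removed a share set by barcode number from each library (11.9% of chemoresistant and 10.3% of primary barcodes).

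Counts were summed per class and library and scaled to CPM, with exact Poisson intervals, and ratios carry the exact interval for 2 Poisson counts. A gene counts as higher or lower at 1.5-fold or more where its mean is at least 10 CPM. The ratio step was tested on simulated data. UMIs are counted once per molecule from the transcript end, so CPM was not divided by length. All 28 genes, and the other pathway genes at least 1.5-fold apart in tumour cells (at most 12, largest first), are named, except some that are not reported here. The genes and lists were chosen with earlier results of these data known. Promoters and positions are from RefSeq, build GRCm38.p6. Python 3.11.15, numpy 2.4.6, scipy 1.17.1, pandas 2.3.3 and scanpy 1.11.5 were used.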

Additional observations from a re-analysis of the deposited data

How the results depend on the processing

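Of 17 other processing choices, 11 were planned and 6 added after seeing the data. Both branch medians stayed below 0 under all 17, while the difference between branches was above 0 under 5 of them, and 18 of 28 genes kept their sign throughout. Stricter marker counts left 3 lower members of 19 past the filter, beside 12.7% of all genes. Leaving out barcodes with 2 or more mesothelial markers, which left 57 primary cells, gave medians of -1.01 (sterol) and -0.50 (fatty acid), a difference of -0.51 and 13 lower members, with 23.9% of all genes lower, against 13.1% as reported. Centring on all genes gave a fatty acid median of -0.095. Adding 20 CPM left 1 lower member (Fasn) of 20 past the filter, beside 5.23% of all genes, and 0 higher. Without cycling cells 0 were higher. Without the level filter the sterol median was -0.42, and 8 of 28 members were lower, beside 13.1% of all genes past the filter. Lifting the coelomic and intestinal limits together gave -1.17 for the sterol branch and a difference of -0.92. Then 12 members were lower, beside 15.2% of all genes. Lifting the intestinal limit alone gave -0.70, a difference of -0.38 and 10 lower members, beside 13.9% of all genes. Lifting the coelomic limit alone gave -0.27. Barcodes with 5 or more mesothelial markers gave -0.066 with 0 higher. The share of all genes higher was not worked out under the other choices. The causes were not tested. Fasn kept 1.5-fold under 15 choices, Elovl5 under 16, Msmo1 under 15, Scd1 under 14, Cyp51 under 13 and Fdps under 9. No paired analysis was possible because each group is 1 library. Counting intervals do not cover animals, runs or dissociation, and free RNA was not removed.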
